A study of Mus musculus with 4 samples.

Results

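The genes described here are 40 genes of the autophagy machinery and of the TFEB family of transcription factors with its lysosomal control, out of 17780 genes in the expression table. They were selected by symbol from a fixed list, written with earlier results of these data known, and all 40 were found. Averaged over the libraries, all 40 reached 1 FPKM, as did 13183 of the 17780 genes, and these 13183 are the background for every count below. FPKM is fragments per kilobase of transcript scaled to sequencing depth, so it allows levels to be compared between genes.

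Poly(A) RNA was sequenced from the lung of C57BL/6 mice, given in the study's methods as male C57BL/6J, 6 to 7 weeks old when purchased. The 4 groups received, by mouth, the carboxymethylcellulose vehicle, amiodarone at 300 mg per kg, dabigatran (given as its prodrug dabigatran etexilate) at 60 mg per kg, or amiodarone + dabigatran (both drugs) at those same doses, on 5 days a week for 4 weeks. Each group is 1 library, from tissue that the methods date to day 26 and the labels to 28 days of treatment, and the sources used here do not state whether its RNA came from 1 mouse or from a pool. The series asks how amiodarone, an antiarrhythmic drug with lung toxicity, alters gene expression in the lung and whether the thrombin inhibitor dabigatran alters that response.

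Autophagy encloses cytoplasm and damaged organelles in a double membrane, the autophagosome, and delivers it to the lysosome. The ULK1 complex and a class III PI3-kinase complex start the membrane, ubiquitin-like conjugation attaches proteins of the ATG8 family to its lipids, and cargo receptors bind both ATG8 proteins and cargo. TFEB, TFE3 and MITF drive transcription of lysosomal and autophagy genes, and they are held in the cytoplasm when mTORC1 phosphorylates them on the lysosome. There the Rag GTPases recruit them, and folliculin (Flcn) with its partners Fnip1 and Fnip2 activates RagC and RagD. Amiodarone is a cationic amphiphilic compound that accumulates in lysosomes, and alveolar macrophages that store phospholipid are a known feature of lungs exposed to it.

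The TFEB family binds an E-box whose preferred form is called the CLEAR element, so the promoters of the members were read for these letters. RefSeq windows of GRCm38.p6, from 250 bases before to 50 bases after an annotated start, existed for 34 of the 40 members (44 windows). The E-box CACGTG, which reads the same on both strands, occurred in the windows of 5 members: Atg3, Atg5, Atg7, Atg14 and Fnip1. That is 11.4% of the members' windows, against 7.15% of all 32851 windows. The longer CLEAR core TCACGTGA, which contains the E-box, occurred in Atg3 alone, and in 0.974% of all windows. The M-box TCATGTG, searched on both strands and sharing no site with the E-box, occurred in Vps41 alone, and in 3.77% of all windows. The stretches that hold the E-boxes are shown on the strand of the gene, with the E-box in capitals, because they are the members' windows that hold the family's letters.
Fnip1, chr11:54438077-54438121, plus strand: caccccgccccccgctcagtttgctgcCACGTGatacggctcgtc
Atg3, chr16:45158708-45158775, plus strand: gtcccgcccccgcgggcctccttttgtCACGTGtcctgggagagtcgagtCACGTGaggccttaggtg
Atg5, chr10:44268298-44268342, plus strand: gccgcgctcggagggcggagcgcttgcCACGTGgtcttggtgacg
Atg7, chr6:114670937-114670981, plus strand: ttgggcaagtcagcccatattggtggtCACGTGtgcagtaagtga
Atg14, chr14:47568418-47568462, minus strand: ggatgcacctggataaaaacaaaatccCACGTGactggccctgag

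Counted from the start site of its window, the E-box began at base -75 in Fnip1, at -94 and -71 in Atg3, at -14 in Atg5, at -132 in Atg7 and at -1 in Atg14, where it crosses the start site. In the GENCODE annotation of the same build, no transcript of Fnip1, Atg3 or Atg5 spanned the whole of a site in its gene. Transcripts that overlap only part of a site were not counted. The RefSeq span of Fnip1 begins at 54438107, inside its site, and that of Atg5 at 44268322, just before its site. The site in Atg7 was in an intron of 13 of its 17 transcripts, because the window belongs to an inner start. Of the 4 transcripts of Atg14, 1 spanned the whole site, with an exon there. The windows of Flcn, Fnip2, Rragd, Rab7 and Gabarap, whose levels are given below, held none of these letters, which says only that the letters are not in those 300 bases.

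Between 17498486 and 18903401 estimated reads on genes were available per library, and single members had from 100 reads (Atg10 with dabigatran) to 9802 reads (Rab7 with amiodarone). As a check of the label lung, Sftpc, the surfactant gene of alveolar type II cells, was at 19587 to 20385 FPKM, and Ager, a gene of alveolar type I cells, was at 2248 to 2462 FPKM. Scgb1a1, the secretory protein of club cells, was at 124168 FPKM in the vehicle library, 73994 with amiodarone, 99032 with dabigatran and 97786 with both drugs. Markers of other cells moved with amiodarone. Macrophage markers were at a summed 3617 FPKM with vehicle and 3942 with dabigatran, against 5872 with amiodarone and 5811 with amiodarone + dabigatran. Most of each sum was Lyz2, at 3396, 3693, 4907 and 4618 FPKM in that order. Neutrophil markers were at a summed 116 and 102 FPKM without amiodarone, against 625 with amiodarone and 446 with amiodarone + dabigatran. Of the 13 macrophage markers, 11 were called higher in both comparisons with amiodarone, and none was called lower. Of the 10 neutrophil markers, 7 passed the filter on low values and 6 of these were called higher in each of the 2 comparisons, with Ltf called lower in the pair with dabigatran, while the granule gene Elane was listed at 0 in 3 libraries and at 0.07 FPKM with vehicle. Markers of heart muscle were at a summed 1555 FPKM in the vehicle library, 818 with amiodarone, 1085 with dabigatran and 754 with both drugs. Those of red cells were at 11387, 15746, 12780 and 6319 FPKM in that order. In the same order, fibroblast markers summed to 438, 311, 505 and 348 FPKM and lymphocyte markers to 156, 64.8, 136 and 102 FPKM. Adipocyte markers summed to 76.4, 27.3, 124 and 51.7 FPKM, with all 4 called lower in both pairs with amiodarone, and endothelium markers to 720.2, 794, 844 and 677 FPKM, with 3 of 5 called lower in the pair with dabigatran. The part of these cells in the values below was not tested, and in tissue RNA a change in the number of cells of a type and a change of RNA per cell cannot be told apart.

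The members were expressed over a wide range, from 2.09 FPKM (Mitf with dabigatran) to 387 FPKM (Gabarap with both drugs). The median member was at 17.1 FPKM in the vehicle library, 17.7 with amiodarone, 17.7 with dabigatran and 17.04 with both drugs. In each library 6 members were above 100 FPKM. Gabarap, an ATG8 protein, was the highest in each library and Mitf the lowest. The factor between a member's highest and lowest library had a median of 1.15 over the members, against 1.22 over all genes. It was under 1.1 for 13 of the 40 members and at least 1.2 for 11, against 1942 and 7220 of all 13183 genes. Among the members only Fnip2 exceeded 1.5, at 1.75, while 2434 of the 13183 genes reached at least 1.5.

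**Figure D1:**
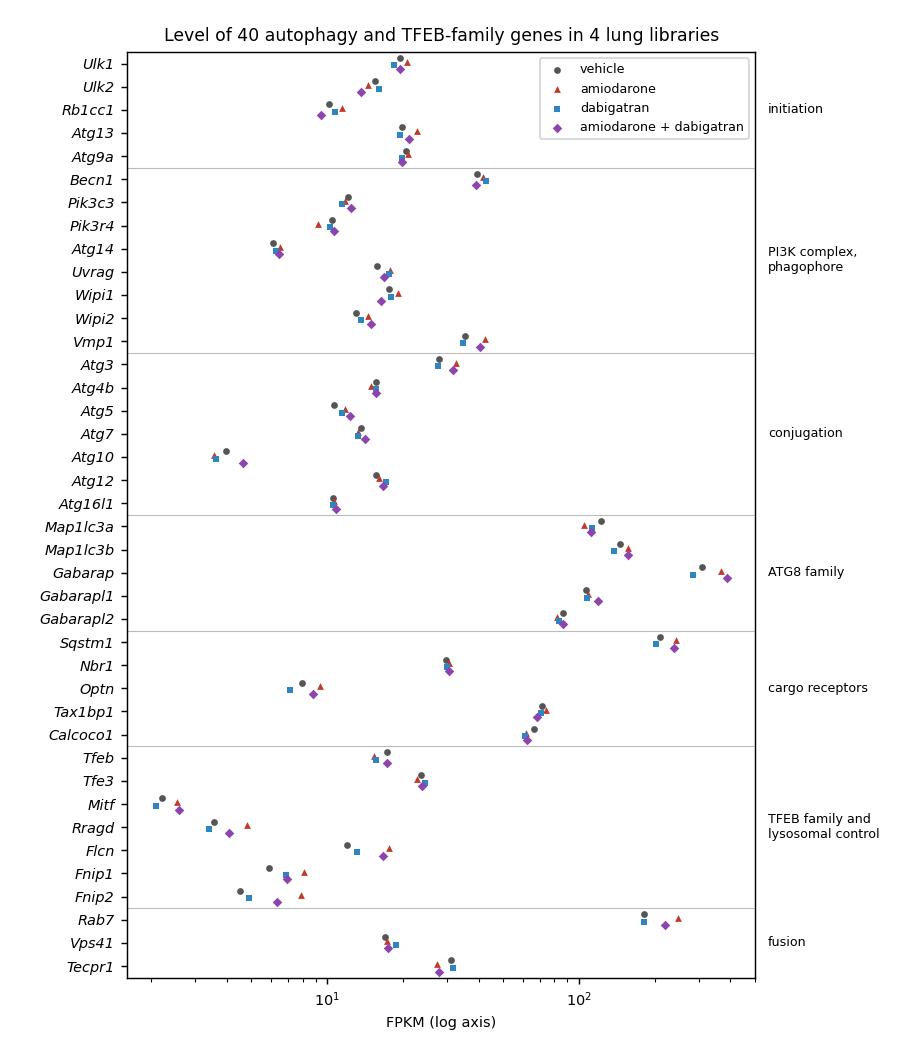
FPKM (log axis) of each of the 40 members in the 4 libraries, ordered by role, with circles for vehicle, triangles for amiodarone, squares for dabigatran and diamonds for amiodarone + dabigatran. The libraries of most genes lie close together, while the symbols with amiodarone stand to the right for Flcn, Fnip2, Rragd and Rab7.

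Amiodarone can be read against its absence in 2 pairs of libraries that share none: amiodarone against vehicle, and amiodarone + dabigatran against dabigatran. A difference is called here where the ratio of FPKM is at least 1.2-fold and its exact Clopper-Pearson 95% interval from the reads excludes 1. The interval covers counting error only, so it compares libraries and not treatments, and with 1 library per group there is no replicate check and no p-value. Against vehicle, 5 members rose with amiodarone: Flcn, Fnip1, Fnip2, Rragd and Rab7. These 5 are 12.5% of the members, beside 11.9% of all genes called higher. After rescaling each library by its median ratio over genes, 9 members (22.5%) were called higher, against 14.5% of all genes. None of the 40 was called lower, against 19.3% of all genes. In the pair with dabigatran, 7 members were called higher (Flcn, Fnip2, Rragd, Rab7, Gabarap, Optn and Mitf), which is 17.5% against 10.6% of all genes. None was called lower there either, against 13.3% of all genes.

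Flcn, Fnip2, Rragd and Rab7 were called higher in both pairs. These 4 are 10% of the members, against 5.94% of all genes, and no member was called lower in both pairs, against 7.44% of all genes. For 19 of the 40 members (47.5%), both libraries with amiodarone were above both without, against 21.9% of all genes. Both were below for 3 members (7.5%), Ulk2, Map1lc3a and Tecpr1, against 31.3% of all genes. After the same rescaling these counts were 22 and 3 of the 40 members, against 26.3% and 27% of all genes. This order takes no account of the size of a difference, and Atg16l1, with ratios of 1.01 and 1.03, is among the 19. Of the 19, 12 were higher beyond counting error in both pairs, a count not made over all genes. Without the fold threshold, 19 members (47.5%) differed beyond counting error between amiodarone and vehicle and 18 (45.0%) in the pair with dabigatran, against 49.5% and 42.8% of all genes. On the log2(FPKM + 1) scale, which understates changes of low genes, the median difference of the members was 0.07 and 0.06 in the 2 pairs, beside -0.04 and -0.01 over all genes.

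**Figure D2:**
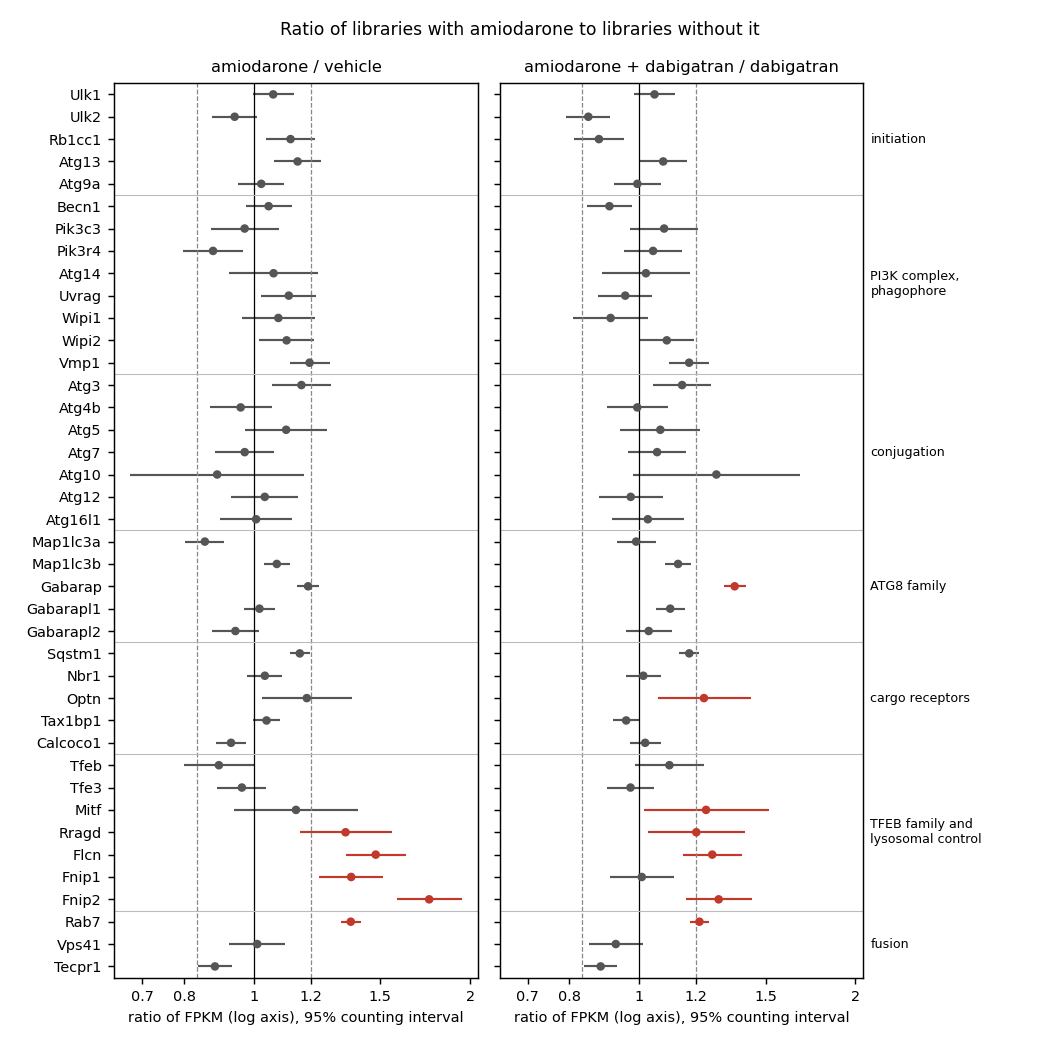
Ratio of FPKM (log axis) with its 95% counting interval for each member, amiodarone against vehicle on the left and amiodarone + dabigatran against dabigatran on the right, where red marks called members and dashed lines mark 1.2-fold in either direction. The 5 called members on the left and the 7 on the right are all higher. In each panel 4 of them belong to the TFEB family or its lysosomal control.

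Among the lysosomal regulators of the TFEB family, Flcn, Fnip2 and Rragd were called higher in both pairs and Fnip1 against vehicle only, while the transcripts of Tfeb and Tfe3 were not called in either pair. Of the 7 genes of this role, 4 were called higher in each pair, the fourth being Fnip1 in one and Mitf in the other, against 11.9% and 10.6% of all genes, with median differences of 0.34 and 0.21 on the log2(FPKM + 1) scale. Fnip2, a partner of folliculin, is on chromosome 3 of GRCm38.p6 from 79455971 to 79568151. It was at 4.51 FPKM in the vehicle library, 7.91 with amiodarone, 4.89 with dabigatran and 6.31 with both drugs. Both libraries with amiodarone stood above both without, with ratios of 1.75 (95% interval 1.58 to 1.95) against vehicle and 1.29 (1.16 to 1.44) in the pair with dabigatran. Its estimated reads were not whole numbers, so RSEM divided some reads between Fnip2 and another transcript.

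Flcn encodes folliculin, on chromosome 11 from 59791408 to 59810039. It was at 11.97 FPKM in the vehicle library, 17.7 with amiodarone, 13.1 with dabigatran and 16.6 with both drugs. The 2 groups of libraries did not overlap, and the ratios were 1.48 (1.34 to 1.63) and 1.26 (1.15 to 1.39). Fnip1, the second partner of folliculin, was at 5.90 FPKM in the vehicle library, 8.06 with amiodarone, 6.88 with dabigatran and 6.94 with both drugs. Its libraries kept the same order, but the pair with dabigatran was nearly level, with a ratio of 1.01 (0.911 to 1.12) beside 1.37 (1.23 to 1.51) against vehicle. Within a library, Fnip2 was at 0.764 times the level of Fnip1 with vehicle and 0.711 times with dabigatran, and at 0.981 and 0.909 times in the 2 libraries with amiodarone.

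Rragd, the gene of the RagD GTPase on chromosome 4 from 32982998 to 33022180, was at 3.57 FPKM in the vehicle library, 4.79 with amiodarone, 3.38 with dabigatran and 4.06 with both drugs. It rose 1.34-fold (1.16 to 1.56) against vehicle and 1.201-fold (1.03 to 1.402) in the pair with dabigatran, where it lay just past the threshold. Mitf was the least abundant member, at 2.21 FPKM in the vehicle library, 2.53 with amiodarone, 2.09 with dabigatran and 2.59 with both drugs. It was called only in the pair with dabigatran, at 1.24 (1.015 to 1.52), and its ratio against vehicle was 1.14 (0.939 to 1.398).

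Tfeb was at 17.2 FPKM in the vehicle library, 15.4 with amiodarone, 15.7 with dabigatran and 17.3 with both drugs, so it was high in the vehicle and the combination libraries. Its ratios were 0.894 (0.7995 to 1.0002) against vehicle and 1.102 (0.987 to 1.23) in the pair with dabigatran. Tfe3, the most abundant of the 3 factors, was at 23.6 FPKM in the vehicle library, 22.7 with amiodarone, 24.5 with dabigatran and 23.8 with both drugs, and its libraries with and without amiodarone overlapped. The summed level of Tfeb, Tfe3 and Mitf stayed between 40.6 and 43.7 FPKM.

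**Figure D3:**
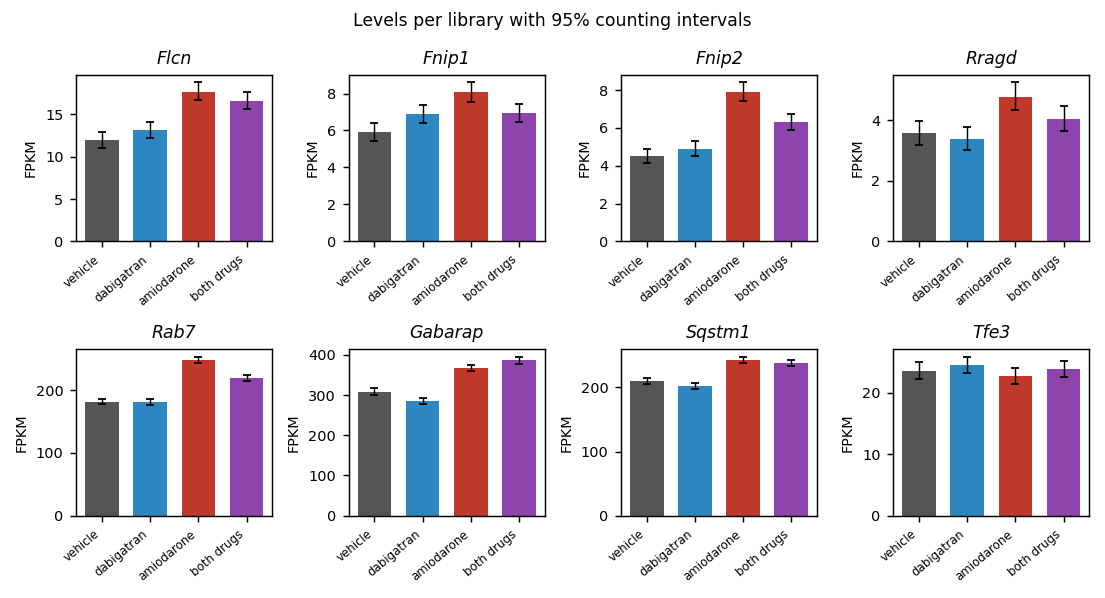
FPKM of 8 members in each library, with exact Poisson 95% intervals from the reads as error bars. For Flcn, Fnip2, Rragd, Rab7, Gabarap and Sqstm1 both libraries with amiodarone are above both without, Fnip1 with amiodarone + dabigatran is level with dabigatran alone, and Tfe3 lies between 22.7 and 24.5 FPKM in all 4.

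In the ATG8 family, whose proteins are attached to the autophagosome membrane, Gabarap was the member that stood out. Gabarap, on chromosome 11 from 69991370 to 69994949, was at 309 FPKM in the vehicle library, 367 with amiodarone, 285 with dabigatran and 387 with both drugs. Both libraries with amiodarone were above both without, and the ratio of 1.36 (1.31 to 1.41) in the pair with dabigatran was called. Against vehicle the ratio of 1.19 (1.15 to 1.23) was beyond counting error but under 1.2-fold.

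Map1lc3b, the LC3B gene whose protein is the usual marker of autophagosomes, was at 146 FPKM in the vehicle library, 157 with amiodarone, 138 with dabigatran and 156 with both drugs. Its ratios of 1.08 (1.03 to 1.12) and 1.13 (1.09 to 1.18) excluded 1 but were not called. Map1lc3a, the LC3A gene, had the opposite order, with 123 and 112 FPKM in the vehicle and dabigatran libraries against 105 and 111 with amiodarone and amiodarone + dabigatran, and its ratios were 0.855 (0.804 to 0.910) and 0.991 (0.931 to 1.05). Gabarapl1 was at 107 to 119 FPKM and Gabarapl2 at 81.7 to 86.6 FPKM. Gabarap took 44.8% and 45.0% of the family's summed FPKM in the libraries with amiodarone, against 40.04% and 39.2% without, while Map1lc3a took 12.8% and 13.0% against 15.9% and 15.5%.

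Among the cargo receptors Optn was called in 1 pair and Sqstm1 in none. Sqstm1 encodes p62, the receptor for ubiquitinated cargo, on chromosome 11 from 50200152 to 50210820. It was at 209 FPKM in the vehicle library, 243 with amiodarone, 202 with dabigatran and 238 with both drugs. The libraries with amiodarone were higher without overlap, yet the ratios of 1.16 (1.12 to 1.196) and 1.17 (1.14 to 1.21) stayed under 1.2-fold. Optn encodes optineurin, a receptor for damaged mitochondria and bacteria, and was at 7.94 FPKM in the vehicle library, 9.41 with amiodarone, 7.14 with dabigatran and 8.79 with both drugs. Its ratios were 1.19 (1.03 to 1.37) and 1.23 (1.06 to 1.43). Nbr1 (29.5 to 30.6 FPKM), Tax1bp1 (68.1 to 74.3 FPKM) and Calcoco1 (61.2 to 66.5 FPKM), the other receptors, were not called in any comparison.

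Of the 3 genes that act in fusion with the lysosome, Rab7 was called in both pairs. Rab7, the small GTPase of late endosomes and lysosomes, is on chromosome 6 from 87999106 to 88045270. It was at 182 FPKM in the vehicle library, 248 with amiodarone, 181 with dabigatran and 219.9 with both drugs. The libraries without amiodarone were nearly equal and both others were higher, by 1.36-fold (1.32 to 1.41) and 1.21-fold (1.18 to 1.25). Tecpr1, which tethers autophagosomes to lysosomes, had a lower level with amiodarone in both pairs, at 31.0 and 31.5 FPKM without it against 27.4 and 27.9 with it. Its ratios of 0.883 (0.836 to 0.933) and 0.884 (0.838 to 0.933) excluded 1 but were not called. Vps41, a subunit of the HOPS tethering complex, was at 17.03 to 18.8 FPKM.

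In the core machinery, none of the 5 initiation genes, the 8 genes of the PI3-kinase complex and phagophore or the 7 conjugation genes was called in either pair with amiodarone, against 11.9% and 10.6% of all genes called higher and 19.3% and 13.3% called lower. After the rescaling, Vmp1 and Atg3 were called higher against vehicle. Rb1cc1, the FIP200 scaffold of the ULK1 complex, was at 10.2 FPKM in the vehicle library, 11.4 with amiodarone, 10.8 with dabigatran and 9.48 with both drugs. Its ratio was 1.125 (1.04 to 1.22) against vehicle and 0.879 (0.812 to 0.952) in the pair with dabigatran, so amiodarone was on the high side in 1 pair and on the low side in the other. The kinases Ulk1 and Ulk2, Atg13 of the same complex and the membrane protein Atg9a had ratios between 0.850 (Ulk2 in the pair with dabigatran) and 1.15 (Atg13 against vehicle).

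In the second group, Vmp1, an endoplasmic reticulum protein needed for the phagophore, came closest to the threshold. It was at 35.4 FPKM in the vehicle library, 42.3 with amiodarone, 34.5 with dabigatran and 40.6 with both drugs, with ratios of 1.196 (1.12 to 1.275) and 1.17 (1.1004 to 1.25). The lipid kinase Pik3c3 with its partners Pik3r4, Becn1, Atg14 and Uvrag, and the lipid-binding Wipi1 and Wipi2, had ratios from 0.878 (Pik3r4 against vehicle) to 1.12 (Uvrag against vehicle). The reads of Becn1, like those of Fnip2, were not whole.

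Among the conjugation enzymes Atg3, which transfers ATG8 proteins to lipid, was at 27.8 FPKM in the vehicle library, 32.4 with amiodarone, 27.7 with dabigatran and 31.8 with both drugs, with ratios of 1.16 (1.06 to 1.28) and 1.15 (1.05 to 1.26). Atg4b, Atg5, Atg7, Atg12 and Atg16l1 had ratios from 0.959 to 1.11 in these pairs, and Atg10, with few reads, had 0.889 (0.673 to 1.18) and 1.28 (0.982 to 1.68). Of the 5 members with an E-box in their window, Fnip1 was called against vehicle. Atg3, Atg5, Atg7 and Atg14 were called in no comparison before the rescaling, and Atg3 was called higher against vehicle after it. Over all genes, 11.9% were called higher against vehicle before the rescaling and 14.5% after it. Whether an E-box goes with a call was not tested.

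**Figure D4:**
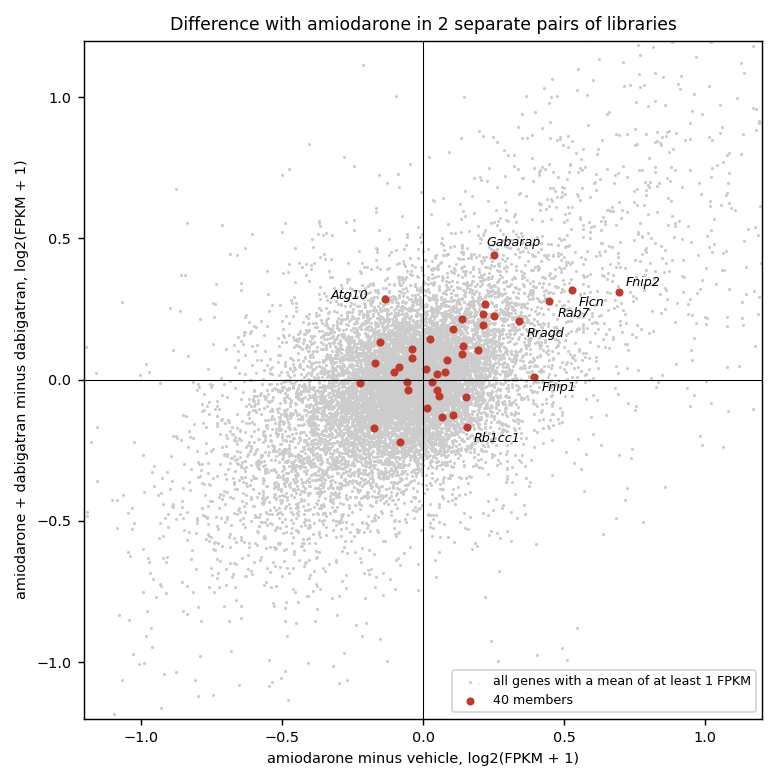
Difference of log2(FPKM + 1) between amiodarone and vehicle (horizontal) and between amiodarone + dabigatran and dabigatran (vertical), with the 40 members in red over the 13183 background genes in grey, and 235 genes outside the range drawn. Fnip2, Flcn, Rab7 and Rragd lie to the upper right, Fnip1 on the horizontal axis and Gabarap highest among the members.

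Dabigatran alone left the members near the vehicle level. None of the 40 was called higher or lower, against 5.08% and 5.36% of all genes, and the ratios ran from 0.899 (Optn) to 1.17 (Fnip1). Beyond counting error 9 members (22.5%) differed, against 28.6% of all genes, with Becn1, Uvrag, Fnip1 and Vps41 higher and Map1lc3a, Map1lc3b, Gabarap, Sqstm1 and Calcoco1 lower. The median difference was -0.01 on the log2(FPKM + 1) scale, beside 0.00 over all genes.

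With amiodarone + dabigatran against amiodarone, Fnip2 and Rb1cc1 fell and Atg10 rose. The ratios were 0.798 (0.728 to 0.875) for Fnip2 and 0.829 (0.768 to 0.896) for Rb1cc1. Atg10, the enzyme that joins ATG12 to ATG5, was at 3.98 FPKM in the vehicle library, 3.54 with amiodarone, 3.63 with dabigatran and 4.65 with both drugs. Its ratio of 1.31 (1.01 to 1.71) rests on 103 reads with amiodarone and 136 with both drugs. The 2 members called lower are 5%, against 6.04% of all genes, and the 1 called higher is 2.5%, against 9.79%. Beyond counting error 13 members (32.5%) differed, against 36.0% of all genes, and the median difference was -0.01 beside 0.03.

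The split of these calls depended on the scaling. Rescaled by the median ratio over genes, 0 members were called higher and 4 lower (Rragd and Wipi1 were added and Atg10 was lost), and with read counts per total of the library the split was 1 and 1 (Rb1cc1 was lost). Over all genes this comparison had 1290 called higher and 796 lower, and 982 and 1057 after the rescaling. This comparison shares the amiodarone library with amiodarone against vehicle, so a high amiodarone library alone gives a rise in one and a fall in the other. Side by side, the values in these 2 comparisons were 1.48 and 0.939 (0.861 to 1.023) for Flcn, 1.37 and 0.861 (0.782 to 0.948) for Fnip1, 1.34 and 0.848 (0.738 to 0.974) for Rragd, and 1.36 and 0.885 (0.860 to 0.911) for Rab7.

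Whether the ratio with amiodarone was the same with and without dabigatran can be put as 1 number per gene, the ratio in the pair with dabigatran divided by that against vehicle, with a counting interval from all 4 libraries. It was below 1 beyond counting error for 10 members (25%), against 15.8% of all genes, and above 1 for 6 (15.0%), against 20.3%. The lowest were Fnip2 at 0.736 (0.635 to 0.852), Fnip1 at 0.738 (0.640 to 0.852) and Rb1cc1 at 0.782 (0.7005 to 0.872). The number was 0.855 (0.748 to 0.978) for Flcn and 0.889 (0.851 to 0.930) for Rab7, and Ulk2, Becn1, Uvrag, Wipi1 and Tax1bp1 made up the rest of those below 1. It was above 1 for Tfeb at 1.23 (1.06 to 1.44) and Gabarap at 1.14 (1.09 to 1.199), and for Pik3r4, Map1lc3a, Gabarapl1 and Calcoco1. For Rragd, at 0.895 (0.726 to 1.103), no difference between the pairs was detectable at this depth. Without replicates, these numbers describe 4 libraries and do not test an interaction of the drugs. The counts of members below and above 1 used FPKM before the rescaling and were not repeated after it.

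The wider pathway was read from 3 further lists. Of 33 other autophagy genes that passed the filter, 5 were called higher and 2 lower with amiodarone against vehicle, and 3 and 2 in the pair with dabigatran, with median differences of 0.06 and 0.04 on the log2(FPKM + 1) scale. Over all genes 11.9% were called higher and 19.3% lower in the first pair, and 10.6% and 13.3% in the second. Bnip3, a mitophagy receptor, was at 34.8 FPKM in the vehicle library, 54.4 with amiodarone, 33.5 with dabigatran and 45.8 with both drugs, and was called higher in both pairs. Retreg1, the receptor for autophagy of the endoplasmic reticulum, was at 30.3, 41.0, 29.5 and 33.7 FPKM in the same order. Vps18 and the kinase gene Tbk1 were called higher and Atg16l2 and Fundc1 lower against vehicle, at ratios of 1.404, 1.25, 0.683 and 0.805.

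Of 26 genes of nutrient sensing at the lysosome, 4 were called higher and 2 lower against vehicle, and 6 and 3 in the pair with dabigatran, with median differences of 0.01 and 0.10, beside the same shares of all genes (11.9% and 19.3%, and 10.6% and 13.3%). Tfec, the fourth factor of the TFEB family, was at 1.26 FPKM in the vehicle library, 2.48 with amiodarone, 1.18 with dabigatran and 1.98 with both drugs, and Sesn2, a stress-induced inhibitor of mTORC1 signalling, was at 4.54, 7.70, 5.60 and 7.18 FPKM. Rragc, whose GTPase like RagD pairs with RagA or RagB, was at 27.8, 34.3, 28.7 and 34.7 FPKM and was called higher in both pairs. Tsc1, a subunit of the complex that restrains mTORC1, was called higher against vehicle at 1.34 and Nprl2, of the GATOR1 complex, lower at 0.797. Rragb, at 1.72 FPKM in the vehicle library, 0.79 with amiodarone, 1.05 with dabigatran and 1.93 with both drugs, was lower with amiodarone in the first pair and higher in the second. Its values rest on only 69, 34, 42 and 82 reads in that order, and those of Tfec on 38, 81, 37 and 70.

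Of 12 lysosomal genes known as targets of TFEB, TFE3 or MITF, 9 were called higher against vehicle and 7 in the pair with dabigatran, and none lower, against 11.9% and 10.6% of all genes called higher, with median differences of 0.41 and 0.32. The list was written with earlier results of these data known, so these counts do not test the activity of the factors. Gpnmb, a glycoprotein of lipid-laden macrophages, was at 3.38 FPKM in the vehicle library, 37.9 with amiodarone, 4.30 with dabigatran and 37.0 with both drugs. Atp6v0d2, a proton pump subunit that macrophages express, was at 7.44, 36.5, 8.43 and 40.1 FPKM in that order. The proteases Ctsd and Ctsb had ratios of 1.89 and 1.48 against vehicle, the glycosidase Gla 2.201 and the sialidase Neu1 1.37. Most of the macrophage markers given above moved with the same libraries. Cd68 was at 28.6 and 25.8 FPKM without amiodarone against 77.2 and 89.2 with it, and Chil3 at 90.3 and 113 against 731 and 940.2. Csf1r and Cd14 were called in neither pair. Csf1r was at 38.7 and 40.9 FPKM without amiodarone against 40.7 and 44.9 with it, and Cd14 at 24.8 and 24.8 against 28.7 and 22.5. The part of the macrophage markers in the levels of these lysosomal genes and of Fnip2, Flcn, Rragd and Rab7 was not tested.

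**Figure D5:**
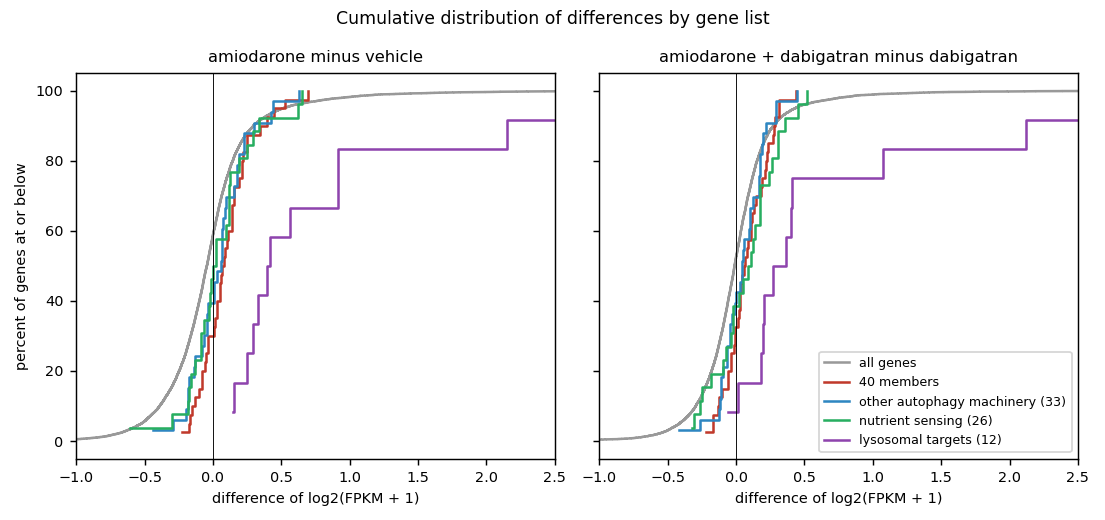
Cumulative percent of genes at or below a given difference of log2(FPKM + 1), amiodarone minus vehicle on the left and amiodarone + dabigatran minus dabigatran on the right, for all genes, the 40 members, other autophagy machinery, nutrient sensing and lysosomal targets. The lysosomal targets, with medians of 0.41 and 0.32, lie far to the right of the members, whose medians were 0.07 and 0.06, and the other 2 lists run close to the members.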

How the data were processed

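The authors selected poly(A) RNA, sequenced it with DNBseq, used HISAT 2.0.4 for mapping to GRCm38.p6, Bowtie2 2.2.5 for mapping to gene sequences and RSEM 1.2.8 for quantification. The table the authors deposited holds 17780 genes, each with an estimated count of reads and a normalized value per library, 1 library in each of 4 groups. The deposited values are read here as FPKM on a linear scale: the unit is not named in the sources used here, but reads per unit of value differed between the amiodarone and vehicle libraries by 1.07, the ratio of their total reads. Strandedness of the library is not given in the sources used here. Another 8 columns of means over 2 libraries were not used.

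Samples were grouped by their labels. Ratios of FPKM were formed for 4 comparisons among genes averaging at least 1 FPKM, with exact Clopper-Pearson 95% intervals from reads rounded to whole numbers. Sequenced fragments are not independent molecules, so all intervals cover counting error only. Medians used log2(FPKM + 1). With 1 library per group no test across animals could be made, and an additive fit over the 4 libraries, which would take the joint effect of the drugs as error, was not made. The number that divides 1 ratio by another has an interval on the log scale from the reads of the 4 libraries.

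Members and lists were chosen with earlier results of these data known. Values in all libraries are given for every member called in a comparison, for Sqstm1, Map1lc3b, Tfeb, Tfe3 and Mitf, and for the 3 most abundant members. Other members given library by library (Map1lc3a, Vmp1, Atg3 and Tecpr1) were chosen after their values were seen. Of each further list, up to 6 genes called against vehicle with the largest differences are named. Of the macrophage markers, Lyz2, Cd68, Chil3, Csf1r and Cd14 are named. Alternatives were folds of 1.1 and 1.5, no fold threshold, a minimum of 5 FPKM or none, a pseudocount of 0.1, and the 2 other scalings named in the results. Python 3.11.15, pandas 2.3.3, scipy 1.17.1 and matplotlib 3.10.9 were used, and the procedure was tested on simulated data. All 40 members matched RefSeq by gene identifier, and GENCODE release 21 for mouse gave transcripts.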

Additional observations from a re-analysis of the deposited data

Results flagged for a closer look

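Rb1cc1 was the member whose difference with amiodarone pointed one way without dabigatran and the other way with it, each beyond counting error. Its ratio was 1.125 for amiodarone against vehicle and 0.879 for amiodarone + dabigatran against dabigatran. With 1 library per group this difference was not tested across animals.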

How the results depend on the processing

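Counts of members called depended most on the fold threshold. At 1.5-fold, amiodarone against vehicle had 1 member called higher, amiodarone + dabigatran against dabigatran had 0, and amiodarone + dabigatran against amiodarone had 0 higher and 0 lower. At 1.1-fold the counts higher and lower were 14 and 3, 12 and 3, and 3 and 6 in those comparisons, with 3 higher for dabigatran against vehicle. With no fold threshold they were 15 and 4, 14 and 4, 5 and 8, and 4 and 5. Over all 13183 genes, in the same order, they were then 2570 and 3950, 2572 and 3076, 2787 and 1963, and 2000 and 1765. Shares of all genes at 1.5-fold and 1.1-fold were not computed, so those counts of members have no background beside them. Rescaled by the median ratio over genes, 9 members (22.5%, against 14.5% of all genes) were called higher with amiodarone against vehicle (Atg3, Gabarap, Optn and Vmp1 were added), and amiodarone + dabigatran against amiodarone had 0 higher and 4 lower. With read counts per total of the library, 1 member was called lower in that last comparison, and at a mean of at least 5 FPKM, 0 were called higher. Of 112 ratios of the 14 named members recomputed under the 2 other scalings, 110 moved by less than their counting interval. Only 1 crossed a ratio of 1, that of Mitf for amiodarone + dabigatran against amiodarone, which was 1.024 and became 0.997 after the rescaling. The 2 that moved further, both amiodarone against vehicle after the rescaling, were Sqstm1 at 1.199 and Rab7 at 1.41. No library can be left out, since each group has 1. No paired analysis was possible because each group holds a single library. Depth limits Atg10, Mitf and Rragd most among the members, and Rragb and Tfec among the nutrient-sensing genes.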
